A study of Arabidopsis thaliana with 36 samples.

Results

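A small set of nuclear genes was lower in Arabidopsis rosettes after 3 days at 4 °C and still lower 2 and 4 days after the plants were moved back to 20 °C. The set holds 44 of the 34262 genes counted. The genes were chosen by their measured levels: a gene was taken when its mean log2(CPM + 1), where CPM is the count scaled to the library's total over genes, was at least 3 in never cold-treated plants and at least 1 lower at each of the 3 later harvests, and when it lay outside the chloroplast and mitochondrial genomes. Of the 11069 nuclear genes that reached the first level, 1220 were that much lower in the cold, 198 after 2 warm days and 218 after 4 warm days, and 127 were so at both warm harvests. All differences from the never cold-treated plants chose the genes and are given here as a description.

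Whole rosettes of 3 lines were sequenced, mbf1c, jub1 and Col0, the last being the wild-type accession. mbf1c and jub1 are mutant lines named after a transcriptional coactivator and a NAC transcription factor, and the labels give neither their alleles nor how many clones or seed lots they stand for. Each line was harvested at 28 days of age before any cold (NonA), after 3 days at 4 °C and 90 µE m-2 s-1 of light (ACC), and 2 days (Deacc2) or 4 days (Deacc4) after return to 20 °C by day and 200 µE m-2 s-1, with 3 libraries a group and 9 a condition. The sample titles number the libraries Exp1 to Exp3 in every group, here replicates 1 to 3, so a replicate number is taken as an experiment that all lines and conditions share. The plants stood 10 to a pot, and the labels do not say whether a library pooled plants or pots. Harvest age was 31 days at ACC, 33 at Deacc2 and 35 at Deacc4, and warm plants of those ages are not among the samples. Age and a history of cold therefore cannot be told apart in any difference from NonA. Light was 200 µE m-2 s-1 at NonA and 90 at ACC, so light too cannot be told apart from cold at ACC. Deacc2 and Deacc4 followed the same 3 cold days, so a history of lower light cannot be told apart from a history of cold there. All 3 differences share the NonA libraries, and the replicates measure the spread between samples, which may be technical in part.

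Cold acclimation is the process by which plants gain freezing tolerance at low, non-freezing temperature, at the cost of growth, and deacclimation is its reversal in the warm. A rosette consists of mature leaves and of young leaves around the shoot apex, where cells still divide and expand, so its RNA is a mixture of growing and grown tissue. In such bulk samples fewer cells of a type and less RNA per cell cannot be told apart.

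Gene counts ran from 14407060 to 63178347 per library. MBF1C averaged 0.448 to 1.03 CPM over the 4 conditions in mbf1c, against 0.884 to 4.201 CPM in Col0, and JUB1 averaged 0.467 to 1.09 CPM in jub1, against 1.05 to 8.43 CPM in Col0. The 9 matched leaf markers summed to a median of 96132 CPM in NonA, 40867 in ACC, 90107 in Deacc2 and 82656 in Deacc4 libraries, and the 12 matched floral organ markers to 0.660 to 4.56 CPM in every library. The 13 matched root markers summed to 57.4 to 144 CPM in NonA, 146 to 217 in ACC, 107 to 242 in Deacc2 and 87.9 to 206 in Deacc4 libraries, with PLT1 and PLT2 at 0 in every library. Most of that sum was RCD1, a gene also known from leaves, and the other 4 tested root markers summed to medians of 34.1, 58.03, 44.7 and 51.1 CPM over the 4 conditions. The part of root tissue in the results was not tested.

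The libraries of a condition were far from alike in these genes. Over the 44 genes the median difference from the NonA mean ranged over -0.29 to 0.37 in single NonA libraries, -1.70 to -0.93 in ACC, -2.12 to -0.26 in Deacc2 and -1.90 to -0.81 in Deacc4 libraries. The mbf1c Deacc2 replicate 1 library stood at -0.26, inside the NonA range, while mbf1c Deacc2 replicate 2 stood at -2.09 and Col0 Deacc2 replicate 2 at -2.12. Without mbf1c Deacc2 replicate 1 the rule took 49 genes, the same number as without mbf1c Deacc2 replicate 3, and without either of the other 2 libraries it took 28, all members. Taken by replicate number, the median Deacc2 minus NonA difference was -0.70 in replicate 1, -1.95 in replicate 2 and -1.05 in replicate 3, and for Deacc4 minus NonA it was -0.88, -1.46 and -1.63. Each of the 44 genes was below NonA at every later harvest in each replicate number, but the size of the fall, and with it the choice of genes, rested on the replicates: without replicate 2 the rule took 13 genes, 10 of them members, without replicate 3 it took 37, 30 of them members, and without replicate 1 it took 87, 42 of them members.

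**Figure D1:**
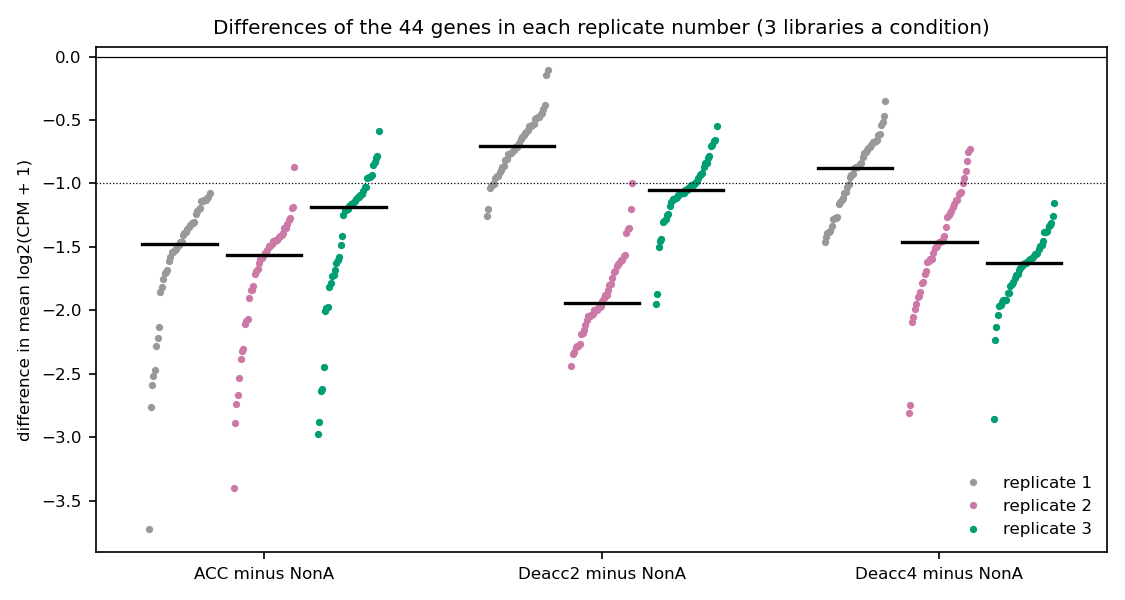
Difference of each of the 44 genes from NonA (mean log2(CPM + 1), vertical axis) at ACC, Deacc2 and Deacc4, computed apart in replicates 1, 2 and 3 (3 libraries a condition, 1 of each line); black bars are medians and the dotted line is the threshold of the rule. All points lie below 0, and the Deacc2 medians run from -1.95 in replicate 2 to -0.70 in replicate 1.

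The median level of the 44 genes was 5.03 before the cold, 3.54 in the cold, 3.96 after 2 warm days and 3.66 after 4, in units of log2(CPM + 1), where the median of all 11069 genes with the same minimum was 4.53, 4.99, 4.75 and 4.75. The members' median difference from NonA was -1.49 at ACC, -1.21 at Deacc2 and -1.33 at Deacc4, against 0.32, 0.12 and 0.12 for all those genes. Of the 44 genes 26 were lowest at ACC, 3 at Deacc2 and 15 at Deacc4. No ACC library reached the lowest NonA library for 37 of them, no Deacc2 library for 10 and no Deacc4 library for 22; over all 11069 genes these shares were 12.6%, 1.42% and 1.94%. The genes whose 27 later libraries all lay below the 9 NonA libraries were 9 in number: ENODL13, ENODL14, ENODL15, PIP2;8, NAKR2, AT3G15680, AT3G02640, AT3G02120 and AT1G73620. The share of all 11069 genes with this trait was not counted. The rule chose the members as low in these same libraries, so the trait is a description. At the edge of the rule stood AT1G34010 (smallest fall 1.00), AT1G52220, TLL1 and BCCP2 (1.01 each) just inside, and PSRP5 (0.997), AT1G31335 and AT5G18970 (0.994 each) and RPL21C (0.993) just outside.

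**Figure D2:**
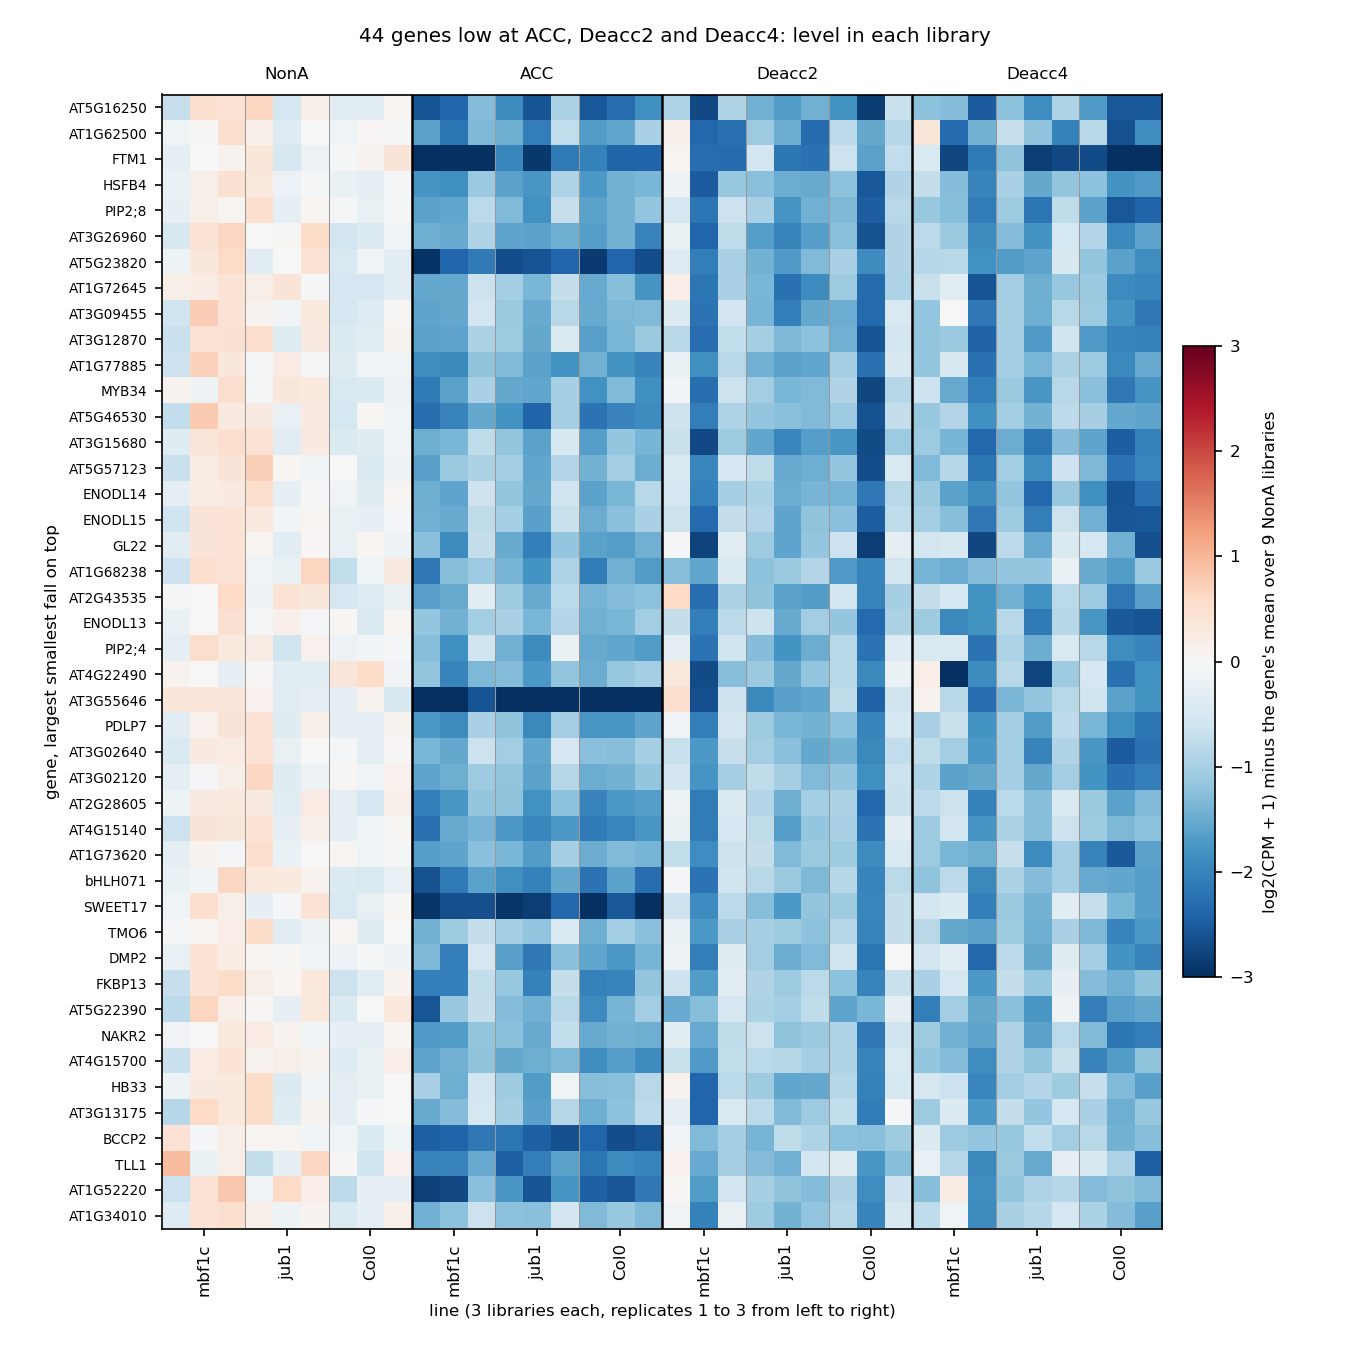
Level of each of the 44 genes (rows, ordered by the smallest of the 3 falls) in each of the 36 libraries (columns, by condition and line, replicates 1 to 3 from left to right), as log2(CPM + 1) minus the gene's mean over the 9 NonA libraries. Blue is below and red above that mean; the mbf1c Deacc2 replicate 1 column is pale, with a median of -0.26.

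The rule was recomputed with 7 other choices of pseudocount, scaling, averaging, strand column and length correction and without each replicate number. Under these settings 7 genes met it every time: AT5G16250, AT1G62500, FTM1, HSFB4, PIP2;8, AT3G26960 and AT3G15680. The settings reuse the same libraries and keep the rule's thresholds. With only the length slope taken out and each library's level kept, which was not among them, AT3G15680 had a smallest fall of 0.94 and missed the rule. AT5G16250, an uncharacterised protein gene with the largest smallest fall, had 134 to 336 CPM (median 228) at NonA, 35.1 to 110.2 (43.1) at ACC, 29.1 to 136 (78.4) at Deacc2 and 35.9 to 113 (65.2) at Deacc4. AT1G62500, which encodes a protein of the lipid-transfer and 2S albumin superfamily, had 59.4 to 110.1 CPM (median 79.3) at NonA, 16.3 to 46.4 (25.8) at ACC, 14.5 to 86.6 (27.3) at Deacc2 and 12.02 to 101 (28.4) at Deacc4. For AT5G16250 1 Deacc2 library and no ACC or Deacc4 library reached the lowest NonA library, and for AT1G62500 this was 1 library each at Deacc2 and Deacc4, both of mbf1c replicate 1. FTM1, annotated as a stearoyl-acyl carrier protein desaturase family gene, had 18.5 to 34.1 CPM (median 26.3) at NonA, 1.01 to 5.93 (4.09) at ACC, 4.43 to 27.5 (7.86) at Deacc2 and 1.54 to 18.7 (3.17) at Deacc4. Its NonA libraries lay above all ACC libraries, and again the mbf1c replicate 1 libraries of Deacc2 and Deacc4 reached into the NonA range. AT3G15680, a RanBP2-type zinc finger protein gene, had 46.4 to 88.4 CPM (median 59.2) at NonA, 19.2 to 44.7 (23.5) at ACC, 8.66 to 38.8 (19.1) at Deacc2 and 10.5 to 28.6 (20.1) at Deacc4. AT3G26960, which encodes a protein of the Ole e 1 and extensin family, had 32.2 to 75.4 CPM (median 47.7) at NonA, 11.3 to 25.04 (16.3) at ACC, 7.105 to 41.2 (14.8) at Deacc2 and 11.8 to 33.3 (19.2) at Deacc4. AT3G15680 had lower medians at both warm harvests than in the cold and never overlapped with NonA, whereas 1 library of AT3G26960 at each warm harvest did.

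**Figure D3:**
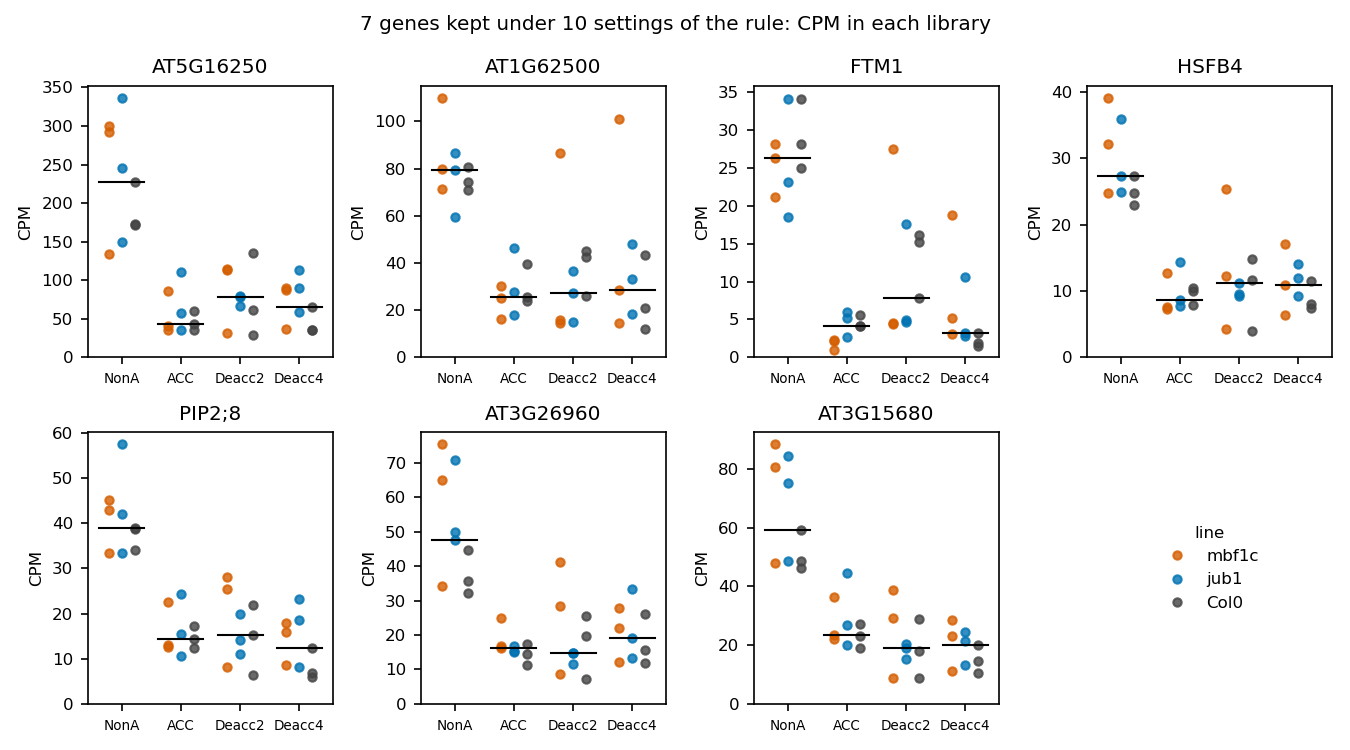
CPM in each library (points, coloured by line) of the 7 genes that met the rule under 10 settings, at NonA, ACC, Deacc2 and Deacc4; bars are medians of 9 libraries and axes start at 0. For each gene the NonA median lies above the other medians, as for AT5G16250 with 228 CPM at NonA and 65.2 at Deacc4.

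Genes for the cell surface and for secreted proteins made up 12 of the 44. They included 3 of the 9 early nodulin-like genes expressed above the minimum, ENODL13, ENODL14 and ENODL15, which encode arabinogalactan-type proteins held at the plasma membrane. ENODL14 had 51.2 to 95.8 CPM (median 64.1) at NonA, 20.9 to 43.3 (24.9) at ACC, 14.2 to 45.3 (24.6) at Deacc2 and 10.1 to 29.9 (17.7) at Deacc4. ENODL15 had 39.6 to 80.3 CPM (median 59.2) at NonA, 18.8 to 37.7 (24.7) at ACC, 10.04 to 38.3 (25.5) at Deacc2 and 9.47 to 38.1 (21.8) at Deacc4. ENODL13 had 14.6 to 28.2 CPM (median 20.1) at NonA, 6.79 to 10.6 (8.47) at ACC, 3.19 to 12.5 (9.31) at Deacc2 and 2.51 to 10.9 (5.09) at Deacc4. All 3 were lower at Deacc4 than at ACC or Deacc2 in their medians and did not overlap with NonA at any harvest, in contrast to ENODL2, with a Deacc4 minus NonA difference of 0.18, and ENODL8, with 0.21. The other early nodulin-like genes ran from -0.96 for ENODL9 to 0.04 for AT5G25940 at Deacc4. The remaining surface genes encode a second lipid-transfer type protein (AT4G22490), a germin-like protein (GL22), a plasmodesmata-located protein (PDLP7), a hydroxyproline-rich glycoprotein (AT3G02120), a thaumatin-type protein (AT1G73620), a knottin (AT2G43535) and an ML-domain lipid-binding protein (AT5G23820). GL22 had 36.9 to 62.7 CPM (median 47.4) at NonA, 10.5 to 27.8 (15.7) at ACC, 5.64 to 44.7 (21.3) at Deacc2 and 6.08 to 33.8 (26.5) at Deacc4. AT5G23820 had 179 to 369.6 CPM (median 229.8) at NonA, 30.97 to 56.00 (39.8) at ACC, 57.9 to 188 (98.5) at Deacc2 and 67.5 to 175 (81.7) at Deacc4. GL22 differed from NonA by -1.47 at ACC and -1.23 at Deacc4, and 3 of its Deacc2 libraries reached the lowest NonA library, while AT5G23820 differed by -2.56 at ACC and -1.32 at Deacc4.

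3 members encode membrane channels or transporters. PIP2;8 and PIP2;4 are plasma membrane aquaporins, channels that let water pass, and they were 2 of 12 such genes above the minimum. PIP2;8 had 33.4 to 57.5 CPM (median 38.99) at NonA, 10.6 to 24.3 (14.5) at ACC, 6.39 to 28.1 (15.3) at Deacc2 and 6.03 to 23.3 (12.5) at Deacc4. PIP2;4 had 4.73 to 11.5 CPM (median 7.39) at NonA, 1.34 to 6.57 (2.03) at ACC, 0.856 to 5.99 (2.502) at Deacc2 and 0.872 to 5.33 (3.52) at Deacc4. PIP2;8 never overlapped with NonA, while 2 libraries at ACC, 2 at Deacc2 and 3 at Deacc4 did so for PIP2;4. Among the other plasma membrane aquaporins the Deacc4 minus NonA differences ran from -0.98 for PIP2A to 0.46 for PIP1A. SWEET17, a fructose transporter of the vacuole, had 90.6 to 177 CPM (median 119.8) at NonA, 11.9 to 23.4 (16.8) at ACC, 31.3 to 80.9 (54.1) at Deacc2 and 29.1 to 97.3 (56.7) at Deacc4. It differed from NonA by -2.79 at ACC and -1.07 at Deacc4, where 2 libraries reached the lowest NonA library.

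The promoters of the genes were read from the TAIR10.1 genome as the 250 bases before each gene's RefSeq start, and 12 short motifs were looked for on both strands. The auxin response element TGTCTC stood in 13 of the 44 promoters, 29.5%, against 10.1% of the 11067 promoters of genes above the minimum and 10.9% of all 38092. The W-box (TTGACC or TTGACT) stood in 38.6%, against 26.8% and 27.4%, and the TATA box TATAAA in 52.3%, against 45.6% and 44.6%. The cold-response core CCGAC stood in 9.09%, against 13.3% and 11.97%. Other shares, again of the members against genes above the minimum and all genes, were those of the G-box CACGTG (9.09% against 7.46% and 5.37%), CACATG (13.6% against 10.9% and 10.9%), the evening element AAATATCT (6.82% against 5.38% and 4.33%) and the I-box GATAAG (15.9% against 12.96% and 12.7%). The last 4 motifs were the site II motif TGGGCC (13.6% against 18.2% and 11.4%), the abscisic acid response core ACGTGG or ACGTGT (13.6% against 16.8% and 14.1%), the telobox AAACCCTA (2.27% against 3.42% and 4.73%) and GAGAGAGA (9.09% against 4.32% and 4.68%).

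A further motif, AACGG, the core of the mitosis-specific activator element known from genes of dividing cells, was looked for after some of these promoters had been read. It stood at least once in 13 of the 44 promoters, 29.5%, against 21.8% and 20.6%, and at least 2 times in 8 of them, 18.2%, against 4.03% of the genes above the minimum and 3.45% of all. Among those 8 genes were AT5G16250, PIP2;8, AT3G12870, ENODL13, ENODL15, AT3G02120 and AT4G15140. AT5G46530 and GL22 held TGTCTC 2 times. The 13 genes with AACGG had a median difference between the warm harvests and ACC of -0.17 on the log2(CPM + 1) scale, and the 31 without it 0.18. A match is a run of letters and says nothing of binding.

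Shown here are the promoters of ENODL13 and ENODL15, which did not overlap with NonA at any harvest, of AT5G16250 and PIP2;8, which met the rule under the 10 settings, and of GL22 with its 2 auxin-type motifs. Each is the 250 bases before the gene start, 5′ to 3′ on the gene's strand, with AACGG or CCGTT and TGTCTC or GAGACA in capitals. ENODL13 is at chr5:8647818-8648067 (minus strand), ENODL15 at chr4:15401390-15401639 (plus strand), AT5G16250 at chr5:5310952-5311201 (minus strand), PIP2;8 at chr2:7301084-7301333 (plus strand) and GL22 at chr1:464982-465231 (minus strand), all in TAIR10.1.
ENODL13: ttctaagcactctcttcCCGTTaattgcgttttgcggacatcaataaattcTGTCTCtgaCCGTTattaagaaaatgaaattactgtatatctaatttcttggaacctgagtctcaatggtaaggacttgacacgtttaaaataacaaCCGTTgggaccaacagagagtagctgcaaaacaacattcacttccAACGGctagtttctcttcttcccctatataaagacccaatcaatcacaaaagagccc
ENODL15: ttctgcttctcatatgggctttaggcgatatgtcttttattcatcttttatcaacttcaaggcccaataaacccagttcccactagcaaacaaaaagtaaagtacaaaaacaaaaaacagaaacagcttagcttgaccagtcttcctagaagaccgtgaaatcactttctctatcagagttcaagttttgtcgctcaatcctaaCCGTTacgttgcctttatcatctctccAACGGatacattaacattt
AT5G16250: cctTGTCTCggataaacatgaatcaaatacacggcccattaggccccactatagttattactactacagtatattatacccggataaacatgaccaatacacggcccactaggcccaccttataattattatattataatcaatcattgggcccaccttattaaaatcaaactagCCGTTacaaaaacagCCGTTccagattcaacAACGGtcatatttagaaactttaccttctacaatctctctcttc
PIP2;8: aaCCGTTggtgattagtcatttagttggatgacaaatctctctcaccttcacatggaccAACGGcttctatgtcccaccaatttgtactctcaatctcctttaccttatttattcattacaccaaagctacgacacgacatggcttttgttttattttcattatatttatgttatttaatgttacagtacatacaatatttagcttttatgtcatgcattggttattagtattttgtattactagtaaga
GL22: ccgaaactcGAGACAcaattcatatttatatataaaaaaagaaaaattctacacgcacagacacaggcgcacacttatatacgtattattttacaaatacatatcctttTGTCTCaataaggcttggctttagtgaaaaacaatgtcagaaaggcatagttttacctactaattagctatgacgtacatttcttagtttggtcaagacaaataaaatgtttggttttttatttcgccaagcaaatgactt
ENODL13 holds AACGG or its reverse complement 4 times, AT5G16250 3 times, and ENODL15 and PIP2;8 2 times each. ENODL13 and AT5G16250 also hold TGTCTC or its reverse complement 1 time each.

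5 members encode transcription factors. MYB34, an activator of indole glucosinolate synthesis, had 32.4 to 63.7 CPM (median 43.7) at NonA, 9.502 to 22.2 (14.5) at ACC, 5.84 to 42.1 (21.3) at Deacc2 and 9.41 to 28.7 (15.01) at Deacc4. HSFB4, a class B heat shock factor known from cell patterning in the root, had 22.99 to 39.2 CPM (median 27.4) at NonA, 7.24 to 14.4 (8.71) at ACC, 4.04 to 25.3 (11.2) at Deacc2 and 6.36 to 17.03 (10.9) at Deacc4. No ACC or Deacc4 library of either gene reached the lowest NonA library, and 1 Deacc2 library did. TMO6, a Dof factor first described as a target of the auxin response factor MONOPTEROS, had 19.6 to 37.8 CPM (median 25.7) at NonA, 8.596 to 18.3 (11.7) at ACC, 5.64 to 21.96 (12.3) at Deacc2 and 5.72 to 13.9 (8.63) at Deacc4. bHLH071, a factor known to bind the stomatal regulator FAMA, had 24.4 to 52.4 CPM (median 31.7) at NonA, 4.67 to 11.03 (7.51) at ACC, 6.44 to 33.1 (18.04) at Deacc2 and 8.05 to 19.1 (13.2) at Deacc4. HB33, a zinc finger homeodomain protein, had 39.7 to 78.8 CPM (median 50.6) at NonA, 16.01 to 48.7 (25.1) at ACC, 9.46 to 57.5 (25.1) at Deacc2 and 12.99 to 37.1 (25.2) at Deacc4. bHLH071 was lowest in the cold, at -1.98 from NonA, and stood at -1.33 at Deacc4, while TMO6 was lowest at Deacc4, with -1.39 against -1.06 at ACC.

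6 members act in the chloroplast or in lipid metabolism, FTM1 among them. AT1G52220, of the family that bends thylakoid membranes, had 373 to 1144 CPM (median 605) at NonA, 92.2 to 273 (117) at ACC, 178 to 661 (327) at Deacc2 and 178 to 759 (282) at Deacc4. FKBP13, an immunophilin of the thylakoid lumen, had 150.1 to 355 CPM (median 260.5) at NonA, 57.01 to 147 (59.1) at ACC, 59.5 to 193 (128) at Deacc2 and 71.9 to 203 (109.8) at Deacc4. AT2G28605, a photosystem II PsbP family gene, had 77.2 to 134 CPM (median 122) at NonA, 25.7 to 48.99 (32.4) at ACC, 20.8 to 99.6 (56.8) at Deacc2 and 26.4 to 81.4 (50.7) at Deacc4. All 3 genes had their lowest medians in the cold without overlap with NonA, and 1 to 3 libraries at each warm harvest did overlap. BCCP2, a biotin-carrying subunit of the plastid acetyl-CoA carboxylase, had 16.1 to 29.4 CPM (median 21.03) at NonA, 2.597 to 4.13 (3.16) at ACC, 7.68 to 20.1 (9.800) at Deacc2 and 7.52 to 16.05 (9.69) at Deacc4. TLL1, a triacylglycerol lipase-like gene, had 164 to 521 CPM (median 281) at NonA, 49.7 to 95.9 (68.3) at ACC, 80.9 to 301 (113) at Deacc2 and 49.2 to 235 (144) at Deacc4. As a group these 6 genes had median differences from NonA of -2.10 at ACC, -1.03 at Deacc2 and -1.08 at Deacc4, where the 12 surface genes had -1.39, -1.22 and -1.46 and the 5 transcription factor genes -1.50, -1.19 and -1.38.

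The other 18 genes had median differences of -1.37, -1.22 and -1.32, and 10 of the 44 genes carry no annotation but "uncharacterized protein". AT3G55646, annotated only with the symbol TPRXL, had 18.7 to 34.6 CPM (median 28.6) at NonA, 0.768 to 3.62 (1.49) at ACC, 3.47 to 37.8 (8.44) at Deacc2 and 4.66 to 28.8 (11.3) at Deacc4. It had the deepest fall in the cold of the 44 genes, -3.36. AT4G15700, which encodes a protein of the thioredoxin superfamily, had 18.1 to 39.6 CPM (median 32.01) at NonA, 7.22 to 12.2 (9.55) at ACC, 6.63 to 21.3 (15.9) at Deacc2 and 6.75 to 18.2 (12.3) at Deacc4. AT3G02640, uncharacterised, had 54.5 to 100.2 CPM (median 74.5) at NonA, 24.5 to 52.5 (30.9) at ACC, 18.7 to 46.5 (30.6) at Deacc2 and 12.5 to 43.5 (21.8) at Deacc4. Neither AT3G55646 nor AT4G15700 was free of overlap with NonA at the warm harvests, with 1 library each, and AT3G02640 was.

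Between the cold and the warm harvests the genes differed among themselves. The rule chose them on the levels of the same ACC, Deacc2 and Deacc4 libraries, so their balance of rises and falls is a description, and the shares over all genes tested are printed beside it with nothing read from them. In edgeR's quasi-likelihood test on counts scaled by TMM, adjusted by Benjamini and Hochberg over 20679 genes, 22 of the 44 genes rose at Deacc2 against ACC and 0 fell, where 32.5% of all genes tested rose and 32.3% fell; no member had an unadjusted p under 0.05 for a fall, and DESeq2 gave 23 and 0. The median of the 44 differences was 0.69, and that of all genes tested -0.01. On the log2(CPM + 1) scale that chose the genes, without TMM, the median difference of the 2 warm harvests' mean from ACC was 0.13, with 30 genes above ACC and 14 below, against -0.20 for all genes above the minimum. At Deacc4 against ACC 13 genes rose and 0 fell (33.3% and 34.3% of all genes tested), with a median of 0.52 against -0.02; no member had an unadjusted p under 0.05 for a fall, and DESeq2 gave 17 and 0. With the length trend of each library as an offset, edgeR's counts at Deacc4 against ACC were 13 that rose and 3 that fell (ENODL13, ENODL14 and AT3G02640), and with the replicate block as well 14 that rose and 4 that fell, the fourth being ENODL15. ENODL14 fell by 0.58 ± 0.19 with the offset and by 0.59 ± 0.15 with the offset and block (SE, adjusted p = 0.00817 and 8.73e-04, edgeR). Both comparisons share the ACC libraries. The counts depended on single replicate numbers: without replicate 1 they were 10 at Deacc2 and 8 at Deacc4, and without replicate 3 the count at Deacc4 was 21. The median at Deacc4 against ACC was 0.22 without replicate 1 and 0.83 without replicate 3. Light and age also differed between these harvests, so warmth, light and age cannot be told apart.

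AT3G55646 rose by a log2 difference of 3.05 ± 0.38 (adjusted p = 5.73e-08) at Deacc2 against ACC in edgeR's test, with 9 libraries of each condition; errors of such differences are SEs. BCCP2 rose by 2.00 ± 0.15 (adjusted p = 6.45e-12) and SWEET17 by 1.94 ± 0.26 (adjusted p = 2.32e-07) in the same edgeR fit. The surface gene AT5G23820 rose by 1.62 ± 0.24 (adjusted p = 1.58e-06) and the transcription factor gene bHLH071 by 1.34 ± 0.25 (adjusted p = 2.79e-05) (edgeR). Among chloroplast genes AT1G52220 rose by 1.48 ± 0.30 (adjusted p = 1.21e-04) and FTM1 by 1.96 ± 0.36 (adjusted p = 2.83e-05) (edgeR). Each of these genes was 1 or more below NonA at Deacc2, as the rule required of every member. At the other end PIP2;8 differed by 0.33 ± 0.28 (adjusted p = 0.306) and AT3G15680 by -0.11 ± 0.28 (adjusted p = 0.737) between Deacc2 and ACC (edgeR). The early nodulin-like genes differed by 0.29 ± 0.25 (adjusted p = 0.298) for ENODL13, 0.17 ± 0.25 (adjusted p = 0.564) for ENODL14 and 0.23 ± 0.29 (adjusted p = 0.494) for ENODL15 (edgeR). None of these 5 passed the test, which does not show that they stayed level. At Deacc4 against ACC, AT3G55646 rose by 3.14 ± 0.38 (adjusted p = 3.51e-08) and BCCP2 by 1.99 ± 0.15 (adjusted p = 7.91e-12), and ENODL14 differed by -0.31 ± 0.25 (adjusted p = 0.289) (edgeR).

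**Figure D4:**
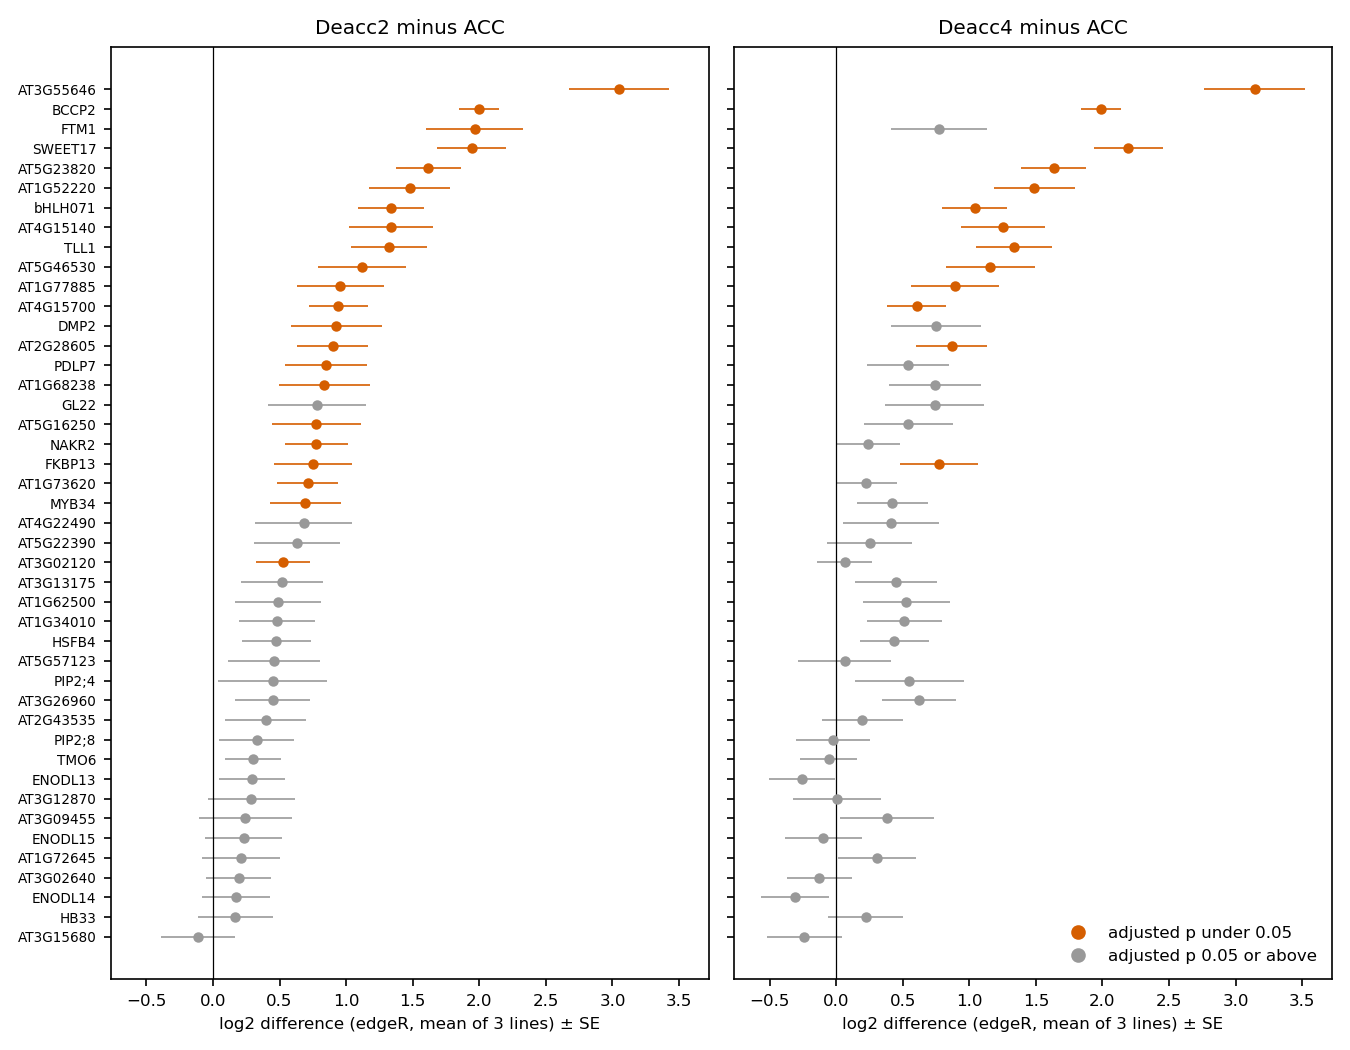
Log2 difference with its SE (horizontal axis, edgeR, mean of the 3 lines) of each of the 44 genes (rows) at Deacc2 against ACC and at Deacc4 against ACC; orange points had an adjusted p under 0.05. The 22 orange points on the left and 13 on the right all lie above 0, led by AT3G55646 with 3.05 and 3.14.

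Between the 2 warm harvests none of the 44 genes passed the test, neither higher nor lower at Deacc4 than at Deacc2, where 0.0387% of all genes tested rose and 0.00484% fell. At an unadjusted p under 0.05 5 members were lower and 0 higher (edgeR), and DESeq2 called 0. The share of all genes tested at that unadjusted level was not counted. The fitted difference was below 0 for 30 genes and above 0 for 14, with a median of -0.11. FTM1 had the smallest p, with a log2 difference of -1.19 ± 0.35 (SE, adjusted p = 0.221, edgeR) and 1.54 to 18.7 CPM (median 3.17) at Deacc4, against 4.43 to 27.5 CPM (median 7.86) at Deacc2. With the length trend of each library as an offset and the replicate number as a block, FTM1, ENODL13 and AT3G02120 fell at Deacc4 against Deacc2 in edgeR's test, by 1.19 ± 0.28 (adjusted p = 0.0345), 0.61 ± 0.14 (adjusted p = 0.0313) and 0.58 ± 0.13 (adjusted p = 0.0317) on the log2 scale. Without replicate 3 the members' median difference was 0.15 and without replicate 2 it was -0.45, so that its sign rested on the replicates.

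The lines did not separate in the tests. Averaged over the 4 conditions 0 of the 44 genes passed in mbf1c against Col0, where 0.00967% of all genes tested rose and 0.0193% fell, and 0 in jub1 against Col0, where 0.0145% rose and 0.0193% fell; DESeq2 also called 0 in each, and edgeR with the replicate number as a block called 0 in each. At an unadjusted p under 0.05 14 members were higher in mbf1c and 15 in jub1, and none lower in either (edgeR). The shares of all genes given above are for adjusted p, and those at this unadjusted level were not counted. The fitted difference was above 0 for 43 genes in mbf1c, with a median of 0.44 where all genes tested had 0.04, and for 42 genes in jub1, with a median of 0.41 where all genes tested had -0.01. With the length offset these medians were 0.30 and 0.29. The 2 comparisons share the Col0 libraries, so their likeness is no repeat. The smallest p belonged to BCCP2 in mbf1c, with 0.45 ± 0.13 (SE, adjusted p = 0.619, edgeR), and to ENODL13 in jub1, with 0.62 ± 0.21 (adjusted p = 0.501).

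At single conditions no member passed in either mutant, with at most 0.00967% of all genes tested called in 1 direction, and at Deacc4 all 44 genes were fitted higher in both, with medians of 0.66 in mbf1c and 0.71 in jub1 against Col0. Without replicate 2 this held for 31 genes in mbf1c, with a median of 0.20, and without replicate 3 for 36 genes in jub1, with a median of 0.39. At NonA, ACC and Deacc2 the medians were 0.56, 0.21 and 0.37 in mbf1c and 0.44, 0.31 and 0.05 in jub1. In jub1 at Deacc2 24 genes were higher and 20 lower, and without single replicates that median ran from -0.25 to 0.46. With all replicates 5 members in mbf1c and 11 in jub1 had an unadjusted p under 0.05 at Deacc4, all higher (edgeR). At the other conditions at most 1 did. In mbf1c 1 member was higher at NonA, and FTM1 was lower at ACC, with a log2 difference of -1.32 ± 0.63 (SE, edgeR). DESeq2 called 0 at every condition. Here too the share of all genes at the unadjusted level was not counted. FTM1 at Deacc4 averaged 8.99 ± 8.51 CPM in mbf1c, 5.53 ± 4.41 CPM in jub1 and 2.21 ± 0.866 CPM in Col0 (SD, n = 3 each). ENODL13 averaged 6.21 ± 2.44 CPM in mbf1c, 8.496 ± 3.997 CPM in jub1 and 3.505 ± 1.57 CPM in Col0. For both genes the means of the mutants lay above that of Col0, and the smallest adjusted p of any member at Deacc4 was 0.985 in mbf1c and 0.909 in jub1 (edgeR). Whether the fall itself differed between lines was tested as an interaction, at ACC and over the 2 warm harvests, and no member passed and no member had an unadjusted p under 0.05 in any of the 4 tests (edgeR; DESeq2 also 0; 0% of all genes tested called). At ACC the members' median interaction was -0.37 in mbf1c, below 0 for 42 genes, where all genes tested had -0.05, and -0.12 in jub1, below 0 for 31 genes, where all genes tested had -0.03. Without replicate 2 that of mbf1c was -0.01, and without replicate 1 that of jub1 was 0.08. The members' median interaction at the warm harvests was -0.09 in mbf1c and -0.08 in jub1, each relative to Col0, and without single replicates it ran from -0.26 to 0.21 in mbf1c and from -0.31 to 0.35 in jub1. In each line taken alone all 44 genes were below NonA at the 3 later harvests, and the 3 falls each reached 1 for 37 genes in mbf1c, 30 in jub1 and 33 in Col0, with 20 in every line.

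The 44 genes were short. Their exonic length, from the annotation of TAIR10.1, had a median of 1053 bases, against 1784 for the genes above the minimum, and 43 of the 44 lay at or below 1784; their GC content had a median of 39.2% against 41.4%. Other short genes also had lower medians: the 1509 genes above the minimum with at most 1053 bases had median differences from NonA of -0.31 at ACC, -0.41 at Deacc2 and -0.28 at Deacc4. The libraries differed in how counts followed length, with a slope of log2 counts on log2 length, relative to the mean library, averaging -0.36 ± 0.30 in NonA, 0.32 ± 0.19 in ACC, 0.06 ± 0.28 in Deacc2 and -0.02 ± 0.30 in Deacc4 libraries (SD, n = 9 each). The highest slopes at Deacc2, 0.41 and 0.47, were those of mbf1c replicate 2 and Col0 replicate 2, the 2 libraries in which the 44 genes were lowest. At Deacc4 the highest slope, 0.32, was also that of the library with the lowest member median, mbf1c replicate 3 at -1.90. At NonA mbf1c replicate 1 likewise had the highest slope, 0.18, and the lowest median, -0.29. Some other libraries did not follow this order. The lowest Deacc2 slope, -0.33, was in mbf1c replicate 3, with a member median of -0.74, while mbf1c replicate 1, with the highest median, -0.26, had a slope of -0.02. At Deacc4 Col0 replicate 2 had a slope of 0.09 and a member median of -1.85. With a smooth length trend taken out of every library, 22 of the 44 genes still met the rule, among 57 genes that did so, and the smallest fall of the 44 genes ranged from 0.58 for AT1G68238 upward, above 0 in all 44. Such a trend also removes any real change that follows length, and a library's overall level with it. With the length slope alone taken out and the library level kept, 10 of the 44 genes met the rule, among 18 genes. This alternative was chosen after seeing the data, and the smallest fall of the 44 genes then ranged from 0.40 for AT3G13175 upward. The part of length in these falls was not tested.

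**Figure D5:**
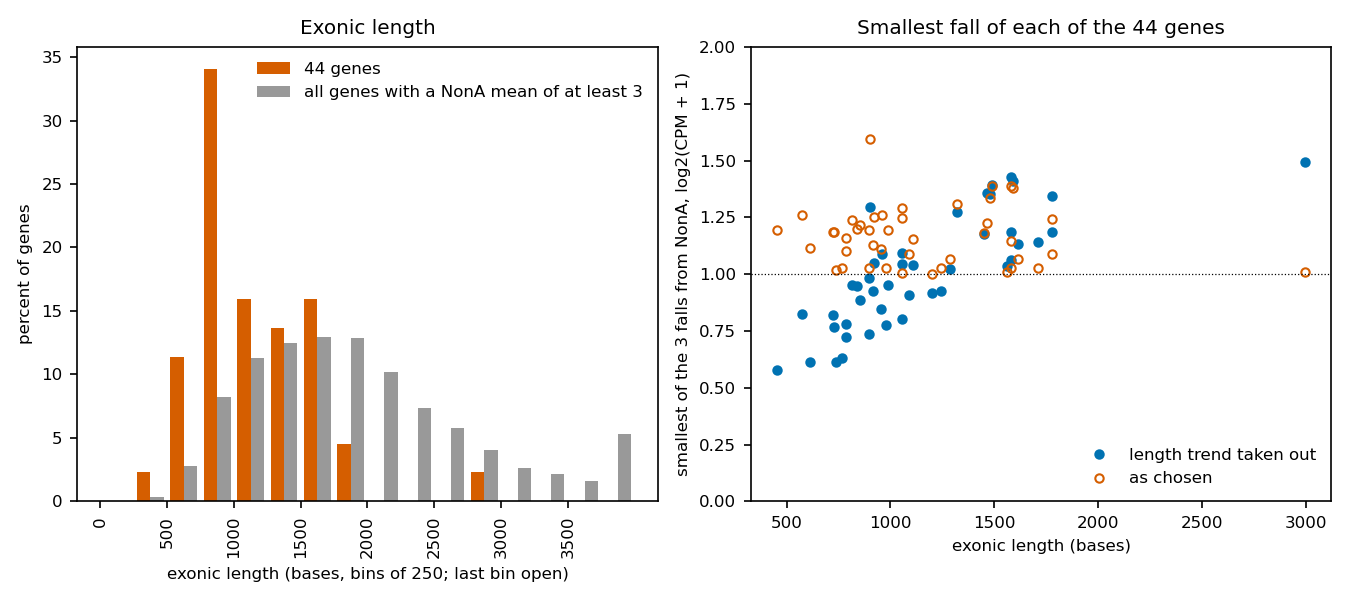
Left, share of genes (percent) by exonic length in bins of 250 bases for the 44 genes and for all 11068 annotated genes with a NonA mean of at least 3. Right, smallest of the 3 falls from NonA of each of the 44 genes against its exonic length, as chosen (open) and with the length trend of each library taken out (filled); 22 filled points lie at or above the dotted threshold of 1.

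The members were spread over the genome, with 12 on chromosome 1, 5 on chromosome 2, 9 on chromosome 3, 5 on chromosome 4 and 13 on chromosome 5, and no 2 lay within 5 genes of each other. None had a copy elsewhere with over 95% identity over at least 200 bases. Exonic bases were shared with a gene on the opposite strand by 5 members, the most in AT4G15140 (20.1%) and BCCP2 (19.8%), whose reads cannot be assigned to 1 strand in these counts. A gene on the same strand shared exonic bases with 2 members.

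The members' pathways were set beside gene lists, of which aquaporins held 2 members, the glucosinolate system 1 (MYB34) and genes of darkness and sugar starvation 1 (SWEET17), and no other list held any. All list counts compare with NonA and use edgeR's adjusted p; among all genes tested 20.8% fell and 19.9% rose at Deacc2, and 21% fell and 19.4% rose at Deacc4. In that fit, at ACC, Deacc2 and Deacc4, 44 of 44 members fell, which follows from the rule; at ACC 35.3% of all genes tested fell. Of 18 aquaporins 11 fell at Deacc2 and 10 at Deacc4 and none rose, with medians of -0.65 and -0.68; without replicate 1 the count at Deacc2 was 5, and without replicate 3 that at Deacc4 was 5. Among those that fell beside the members were PIP2A, with a log2 difference of -1.09 at Deacc4, and GAMMA-TIP, a water channel of the vacuole, with -0.92 at Deacc2. Of 26 glucosinolate genes 11 fell and 2 rose at Deacc2, and 13 fell and 1 rose at Deacc4, and without replicate 3 the counts that fell were 4 and 4. Of 20 genes of darkness and sugar starvation 9 rose at Deacc2 and 11 at Deacc4, and SWEET17 was the 1 that fell at each.

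Lists without a member were also low at the warm harvests. Of 17 genes matched by symbol to a list of cytosolic ribosomal proteins, among them RPS9, RPL4, RPL24 and RPL27, which encode proteins of the plastid ribosome, 15 fell at Deacc2 and 14 at Deacc4 and none rose, with medians of -0.59 and -0.61, and with the length offset 7 and 8 fell. Of 25 cell division genes 16 fell and 1 rose at Deacc2, and 17 fell and 2 rose at Deacc4, with medians of -0.59 and -0.95, while at ACC 10 fell and 5 rose. The mitotic kinase genes CDKB1;1 and CDKB1;2 fell by 1.35 and 1.61 on the log2 scale at Deacc4, with 5.81 ± 1.93 and 2.495 ± 0.808 CPM there, against 13.2 ± 2.06 and 6.68 ± 1.24 CPM at NonA (SD, n = 9 each). A further mitotic kinase gene, CDKB2;1, had 8.68 ± 3.49 CPM at Deacc4, against 19.1 ± 4.73 CPM at NonA, a log2 difference of -1.29. The replication helicase genes MCM2, MCM3 and MCM5 did not pass at either warm harvest, and the tubulin gene TUB6 rose by 0.41 at Deacc2 and 0.50 at Deacc4. Without replicate 3 the count that fell at Deacc2 was 8, and without replicate 2 it was 11. Whether fewer dividing cells or other tissue shares had a part in the low level of the 44 genes was not tested.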

How the data were processed

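RNA of 36 whole rosette samples (Trizol, DNase) was sequenced on a BGISEQ-500, per the labels' protocols. The authors deposited raw read counts per gene for each library, as the file headers and columns of STAR's gene counting show; STAR 2.6.0c, the TAIR10 build and DESeq2 are named without a role in the submitters' processing notes, and the sources used here do not give the annotation release. The unstranded count column was used, since the share of counts on the first strand was 50.4 to 52.0% in every library. Gene counts were 14407060 to 63178347 per library, with 87.2 to 93.0% of reads in genes, and intervals on counts cover counting error only. The member rule used log2(CPM + 1). The members and the gene lists were chosen with earlier results of these data known. Genes were named by a rule: members held by a gene list, members with the largest smallest fall (12), the highest NonA CPM (8), those at the threshold (4 on each side), those with the smallest adjusted p in the line, interaction and Deacc4 against Deacc2 tests (up to 5 each way), and the 5 largest and 5 smallest rises over ACC; 26 members met it, and other members and list genes were named by role after their values were seen. All tests used edgeR 4.0.16 (TMM, quasi-likelihood, 20 contrasts, 20679 genes, Benjamini-Hochberg adjustment) in R 4.3.3 with DESeq2 1.42.0 as an alternative, and were tested on simulated data. Alternatives changed scaling, pseudocount, thresholds, strand column, length correction (R's own loess, span 0.5), lines and replicates. The titles' Exp numbers are labels that pair libraries across lines and conditions; in a check, same-numbered mbf1c and Col0 libraries deviated together (r over 0.1) in 12 of 12 pairs, jub1 and Col0 in 7 of 12, Deacc2 and ACC in 7 of 9, Deacc4 and ACC in 4 of 9 and Deacc4 and Deacc2 in 5 of 9. Names, lengths and promoters came from RefSeq TAIR10.1, and copies from BLAST+ 2.17.0. The sequence of 1 further promoter is not reported here.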

Additional observations from a re-analysis of the deposited data

Results flagged for a closer look

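Of 104 sets of 9 libraries examined, 2 held a library that stood far from the others, and chance alone marks about 1 in 20 such sets. BCCP2 had 20.1 CPM in mbf1c Deacc2 replicate 1, against 7.68 to 12.4 CPM in the other 8 Deacc2 libraries. AT1G52220 had 759 CPM in mbf1c Deacc4 replicate 2, against 178 to 358 CPM in the other 8 Deacc4 libraries.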

How the results depend on the processing

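The rule took 44 genes as reported, 122 with TMM and 124 with RLE scaling and 16 with a pseudocount of 5. It took 119 with a fall of 0.8, 1 with a fall of 1.5 and 22 with a NonA mean of at least 5. With the length slope taken out and the library level kept, an alternative chosen after seeing the data, it took 18, 10 of them members. Leaving out a replicate number or a single library gave 13 to 87 genes; the cause of these moves was not tested. The count of members that rose ran from 10 to 23 at Deacc2 against ACC and from 8 to 21 at Deacc4 against ACC without single replicates. With the replicate number as a block the counts were 23, 19 and, for Deacc4 against Deacc2, 0; both mutants against Col0 stayed at 0. Among these comparisons the block changed no other call of a member than the 1 and 6 added at Deacc2 and Deacc4 against ACC. With the length offset 3 members fell at Deacc4 against ACC, and 4 with the offset and block, where none did without the offset. Only the offset with the block gave 3 calls at Deacc4 against Deacc2, and no run setting called a member between lines. Harvest age and the lower light of the cold days limit every difference from NonA, and 3 libraries a group limit the line tests.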
